A study of Mus musculus with 26 samples.

Results

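The parathyroid hormone (PTH) receptor axis was followed through 6 genes in RNA sequencing of mouse osteoblasts, the bone-forming cells. The members were the receptor Pth1r, its local ligand Pthlh, the G protein subunit Gnas, the phosphodiesterases Pde4b and Pde4d, and the cAMP-responsive transcription factor Crem. They were found by symbol among the 26264 symbols of the deposited count table, and all 6 were among the 16566 genes that passed the filter on low counts. Pth1r was selected on its measured pattern over these 18 libraries, so its levels and fold changes are a description and carry no test. The other 5 members, and 9 lists of further pathway genes, were tested within fits over all genes. All cells came from the femur of C57BL/6J mice and were cultured, and each of 6 groups held 3 libraries. YOUNG and OLD came from wild-type mice and were isolated at 3 and 18 months of age. For the other groups the labels say young or old and give no age in months, so a match in age with YOUNG or OLD is not known. CKO-YOUNG and CKO-OLD carried Kdm2b fl/fl with Ocncre and the Ai14 reporter, a cross that removes the CxxC domain of Kdm2b, the subunit that brings PRC1.1, a Polycomb complex, to CpG-rich DNA. CON-YOUNG had Ocncre and Ai14 without the floxed gene. CON-OLD-iBP is labelled as an old control given iBP, a name that the labels do not expand. No untreated old control carrying Ocncre is analysed here, so OLD served as the old reference for CKO-OLD and for CON-OLD-iBP, and these comparisons therefore share libraries. Ocncre uses the osteocalcin promoter, which is active in mature osteoblasts, and the label names a selection of the knockout cells after isolation. The labels do not state whether the replicates of a group are different animals or cultures. The p-values therefore describe the spread among these libraries, and that spread may be technical.

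PTH1R is a receptor of the cell surface that binds parathyroid hormone from the blood and the related peptide PTHrP, the product of Pthlh, made by neighbouring cells. It couples chiefly to the stimulatory G protein encoded by Gnas, which turns on adenylyl cyclase, and the resulting cAMP activates protein kinase A and transcription factors of the CREB family. Phosphodiesterases degrade cAMP and so limit the signal, and in osteoblasts the pathway is known both for bone formation under intermittent PTH and for bone resorption through RANKL.

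Because Pth1r carries the pattern described here, the 250 bases upstream of each of its 3 RefSeq start sites are shown, with CpG dinucleotides in capitals, since a CxxC domain binds unmethylated CpG. The sequences are from RefSeq on GRCm38.p6, all on the minus strand of chromosome 9, and are written 5′ to 3′.
Pth1r start 1, chr9:110747146-110747395: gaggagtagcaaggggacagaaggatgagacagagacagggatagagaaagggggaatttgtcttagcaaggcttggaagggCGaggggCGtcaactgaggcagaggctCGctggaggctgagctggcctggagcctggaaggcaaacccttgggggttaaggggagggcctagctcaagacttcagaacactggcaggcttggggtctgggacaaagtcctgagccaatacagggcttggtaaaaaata
Pth1r start 2, chr9:110743687-110743936: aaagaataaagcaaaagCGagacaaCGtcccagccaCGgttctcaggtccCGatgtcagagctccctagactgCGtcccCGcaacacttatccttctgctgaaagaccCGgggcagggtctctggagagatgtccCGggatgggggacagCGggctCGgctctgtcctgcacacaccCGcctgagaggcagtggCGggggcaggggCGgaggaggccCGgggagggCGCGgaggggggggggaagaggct
Pth1r start 3, chr9:110742611-110742860: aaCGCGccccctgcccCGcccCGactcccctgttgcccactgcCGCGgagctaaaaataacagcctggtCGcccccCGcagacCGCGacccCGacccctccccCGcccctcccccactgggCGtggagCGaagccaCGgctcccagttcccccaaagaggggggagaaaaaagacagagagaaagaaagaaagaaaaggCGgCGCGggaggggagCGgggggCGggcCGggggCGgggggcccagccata

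Pth1r starts 2 and 3 lie 3459 and 4535 bases downstream of start 1. In windows of 300 bases (250 before and 50 after the start), start 1 had 5 CpG dinucleotides, start 2 had 23 and start 3 had 27. The median over 32851 RefSeq windows was 7 and the upper quartile 20, so start 1 was below the median and the other 2 above the upper quartile. Counts were deposited per gene symbol, so the start site that gave the Pth1r reads could not be read from them. The GC box GGGCGG, searched on both strands, occurred at 1 place in the window of start 2 and at 4 in that of start 3, and 35.66% of all windows hold it. The complete cAMP response element (CRE) TGACGTCA, found in 1.79% of all windows, did not occur in a window of Pth1r, Pthlh, Gnas, Pde4b or Pde4d. Its core TGACG, found in 20.81% of all windows with cores inside the complete element counted, occurred at position -161 of Pth1r start 1, at -34 of the first of 4 Pde4b starts, and in 3 of the 4 Gnas windows (-38, -57 and -216, from starts 2, 3 and 4). The RUNX motif TGTGGT (16.76% of all windows) was found in none of the 3 Pth1r windows.

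The libraries held 46.27 to 77.7 counts in units of 1e6, and they fell into 3 sets that cross the groups. Set 3 held 10 libraries with Malat1, a nuclear noncoding RNA, above 0.05% of counts. It took in every CKO-OLD and CON-OLD-iBP library and 1 each of YOUNG (replicate 3), OLD (replicate 2), CON-YOUNG (replicate 3) and CKO-YOUNG (replicate 3). Below that level, YOUNG 1 and 2 with OLD 1 and 3 formed set 1, and CON-YOUNG 1 and 2 with CKO-YOUNG 1 and 2 formed set 2. Across genes, OLD 1 and OLD 3 were the closest pair of libraries (Spearman 0.9953), followed by CKO-YOUNG 1 and 2 (0.9905) and CON-YOUNG 1 and 2 (0.9888). The sets also differed in markers of other cells and in sex-linked RNA. Macrophage and monocyte markers (26 genes) summed to 1.09% to 1.68% of counts in set 1. The sum was 0.0161% to 0.0218% for set 2 and 0.0511% to 0.665% for set 3, and each of the 26 was detected in at least 1 library. Xist was at 390.9 to 481.3 CPM (counts per 1e6 scaled counts) in set 1 with Ddx3y listed at 0, and CKO-YOUNG 3 held both Xist (372.4) and Ddx3y (21.27). The part that set, sex and other cells play in any group difference below was not tested beyond the values given. Osteoblast genes were present in every library: Col1a1 at 2909.6 to 32712 CPM, Alpl at 43.4 to 1365, Runx2 at 39.2 to 116 and Sp7 at 25.6 to 247. Bglap, which encodes osteocalcin, did not exceed 0.306 CPM in CKO-YOUNG. Its control CON-YOUNG was also low, with 0.15, 0 and 9.89 CPM, and both groups were below the 25.2 to 83.6 of YOUNG, OLD, CKO-OLD and CON-OLD-iBP. Kdm2b counts over the whole gene were 51.47, 58.23 and 27.56 CPM in CKO-YOUNG and 48.79, 52.85 and 19.93 in CON-YOUNG, and a count over the whole gene does not check a deletion of 1 domain.

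Pth1r, the receptor, was lowest in CON-OLD-iBP and OLD, while the other 4 groups overlapped one another. Levels are CPM with library sizes scaled by edgeR's TMM method. In YOUNG the 3 libraries had 174, 147 and 107 CPM, and in OLD 84.2, 26.4 and 81.8. Every OLD library was below every YOUNG library. The mean was 64.1 ± 32.7 CPM in OLD and 143 ± 33.4 in YOUNG (SD, n = 3 each), a log2 difference of -1.15 with an approximate standard error of 0.466. Within set 1 the difference was -0.95, and between the single libraries of set 3 it was -2.02. Osteoblast markers (16 genes) moved the same way, summing to 4.78% to 5.04% of counts in YOUNG and 3.41% to 4% in OLD without overlap, with 13 of 16 lower and a median log2 difference of -0.827, and their part in the lower Pth1r of OLD was not tested. In bulk RNA, fewer cells that express the receptor and less receptor RNA per cell cannot be told apart.

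The young knockout and its control overlapped in Pth1r. CON-YOUNG held 241, 160.2 and 64.3 CPM, the widest spread of any group, and CKO-YOUNG held 206, 153 and 147. The ranges overlapped, and the log2 difference of CKO-YOUNG over CON-YOUNG was 0.12. The low CON-YOUNG library was its only one from set 3. Between the libraries of set 2 the difference was -0.16, and between the single libraries of set 3 it was 1.19.

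In old cells, the knockout had more Pth1r than either other group. CKO-OLD libraries held 172, 176 and 122 CPM (mean 157 ± 30.1, n = 3), all above the OLD libraries, with a log2 difference of 1.29 (standard error 0.467). CKO-OLD overlapped CKO-YOUNG, with a log2 difference of -0.10. OLD 2 was the one OLD library from the set of the CKO-OLD libraries, and against it alone the log2 difference was 2.57. The osteoblast marker share of CKO-OLD, 3.34% to 4.8%, overlapped that of OLD.

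CON-OLD-iBP had the lowest receptor level, at 23.6, 42.3 and 19.4 CPM (mean 28.5 ± 12.2, n = 3). All 3 libraries were below every library of CKO-OLD, with which they share set 3. The log2 difference from CKO-OLD was -2.46 (standard error 0.486), a level 5.52-fold lower. Against OLD it was -1.17, but the ranges overlapped, and against OLD 2 alone it was 0.11. Ordered by mean, the groups were CKO-YOUNG, CKO-OLD, CON-YOUNG, YOUNG, OLD and CON-OLD-iBP, and the step from YOUNG to OLD was the only one between neighbours whose libraries did not overlap.

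**Figure D1:**
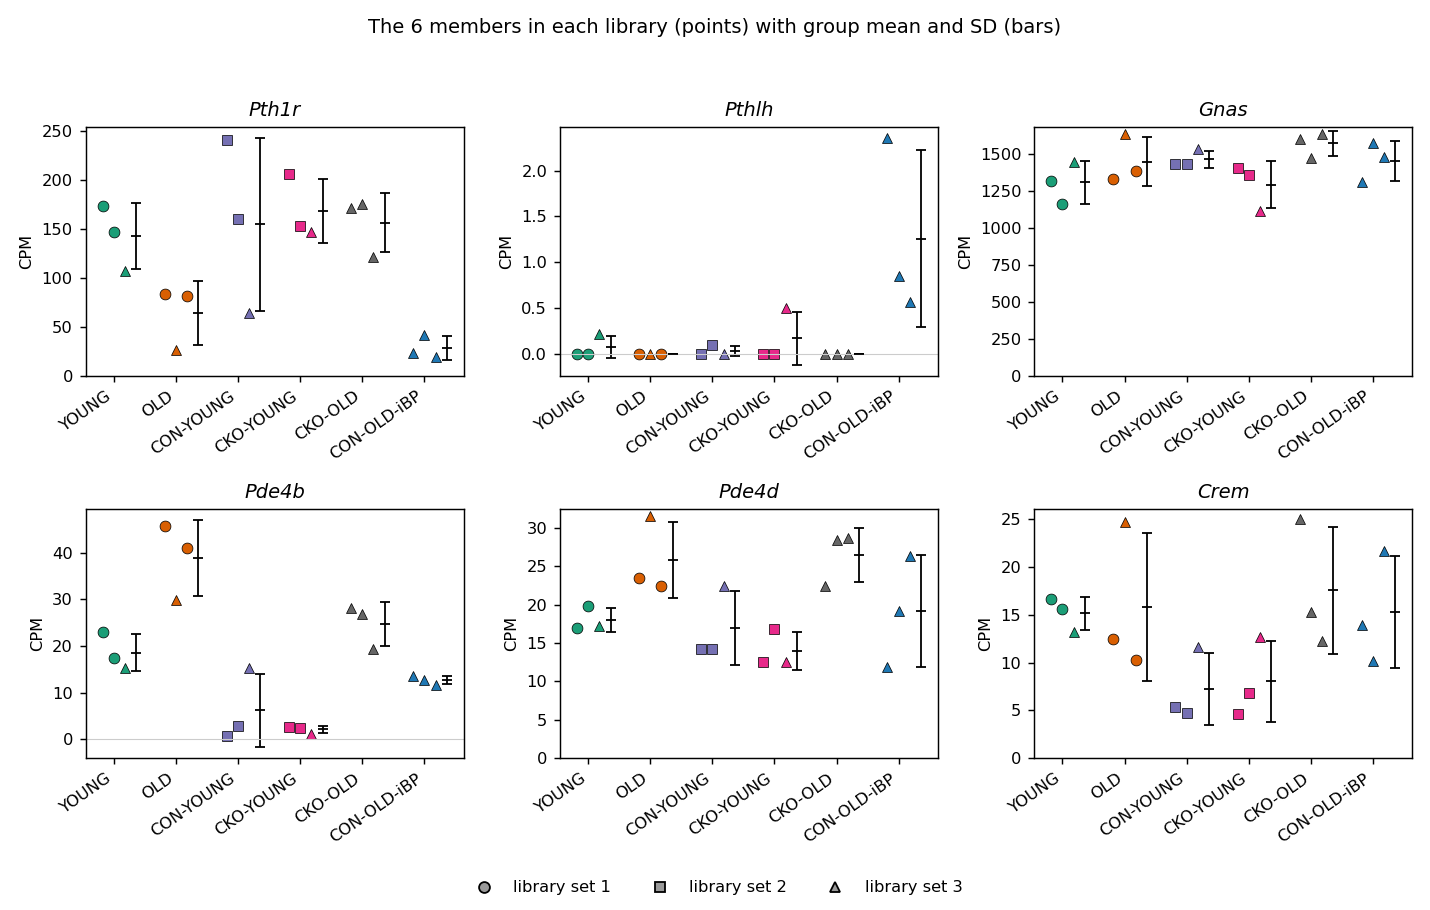
CPM of each member (vertical axes, linear) in the 18 libraries by group, with points for libraries, shapes for library sets, and bars for the group mean and SD of 3 libraries. Pth1r spans 19.4 to 241 CPM with OLD and CON-OLD-iBP lowest, Pthlh is above 0.5 CPM in all 3 CON-OLD-iBP libraries, Gnas stays between 1114 and 1637, and Pde4b is lowest in CKO-YOUNG.

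The genes whose levels ran most like Pth1r over the 18 libraries were Stc1, Dipk2a, Sp7, Abhd15, Lama1 and Alpl. They had the highest Spearman correlations among 10818 tested genes with a mean of at least 5 CPM: 0.915 for Stc1, 0.874 for Dipk2a, 0.862 for Sp7, 0.86 for Abhd15, 0.856 for Lama1 and 0.851 for Alpl. Stc1 encodes stanniocalcin, a secreted glycoprotein, Sp7 is the osteoblast transcription factor osterix, and Alpl is the alkaline phosphatase of mineralising cells. These are descriptions over libraries that share groups and sets. With the mean of each set subtracted, Slc9a3r1 came first at 0.911, followed by Arid5a and Gpr153 (both 0.901), Stc1 (0.899), Alpl (0.897) and Sncaip (0.889). Stc1 and Alpl were thus in both lists of 6. Slc9a3r1 encodes NHERF1, a scaffold that binds the tail of PTH1R, and its correlation without that subtraction was 0.692. The lowest correlations were those of Fam214b (-0.909), Fam98b (-0.893) and Nipal1 (-0.882).

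Osteoblast genes did not all follow the receptor. Over the same libraries, the Spearman correlation with Pth1r was 0.763 for Col1a1, 0.509 for Runx2, 0.094 for Ibsp and -0.134 for Bglap. The summed share of 16 osteoblast markers correlated with Pth1r at 0.781 and that of 26 macrophage markers at -0.084. In CON-OLD-iBP, osteoblast markers summed to 1.7% to 3.41% of counts, against 3.34% to 4.8% in CKO-OLD, and their part in the lower Pth1r of CON-OLD-iBP was not tested.

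**Figure D2:**
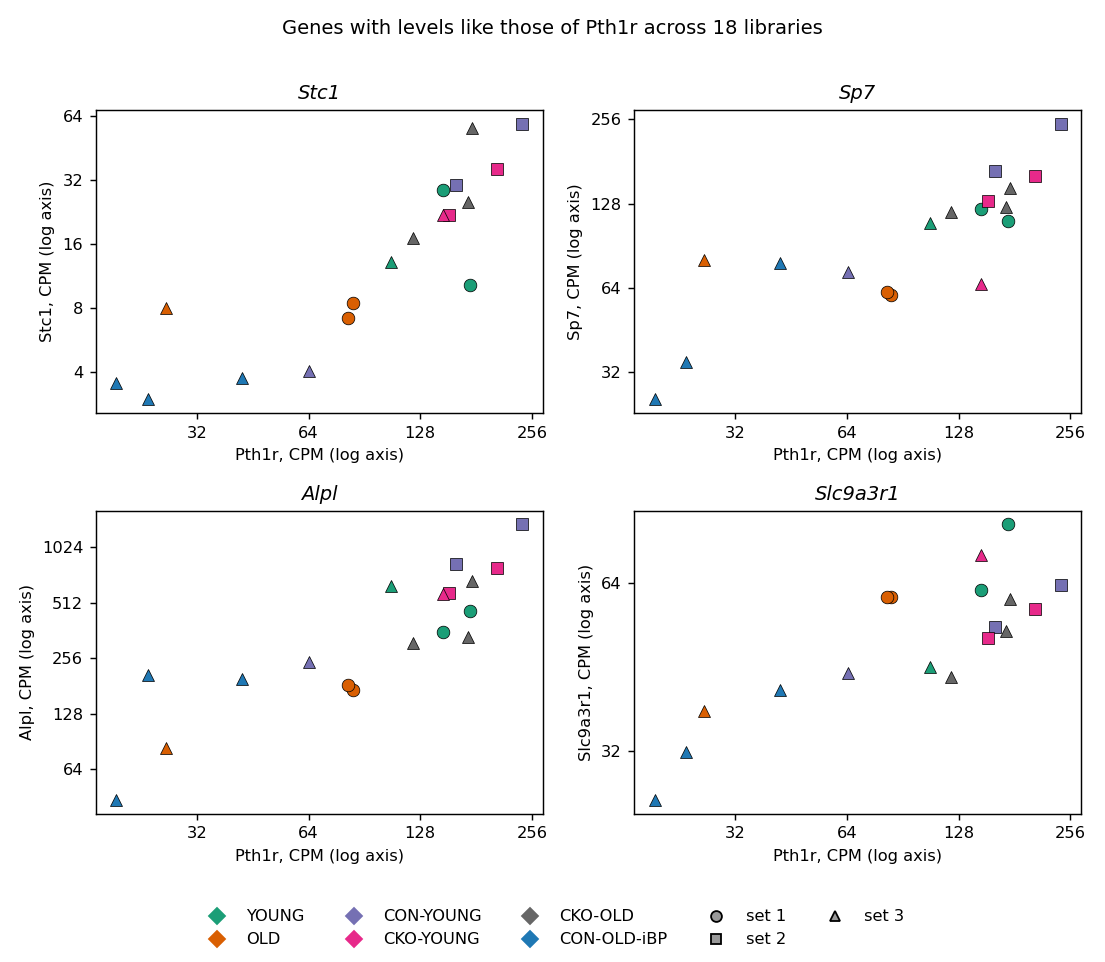
Pth1r (horizontal, CPM, log axis) against Stc1, Sp7, Alpl and Slc9a3r1 (vertical, CPM, log axes) in 18 libraries, coloured by group and shaped by set. Stc1 runs with Pth1r from 2.97 CPM in a CON-OLD-iBP library to 58.6 in CON-YOUNG 1, and Slc9a3r1 spans a narrower range, 26.1 to 81.7.

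Pthlh, the gene for the ligand PTHrP, was detected in all 3 libraries of CON-OLD-iBP and nearly nowhere else. The CON-OLD-iBP libraries held 117, 46 and 28 counts, or 2.36, 0.844 and 0.568 CPM. The only other libraries with counts were YOUNG 3 (11 counts), CON-YOUNG 2 (5) and CKO-YOUNG 3 (34), and the gene was listed at 0 in the other 12. The highest value outside CON-OLD-iBP, 0.496 CPM in CKO-YOUNG 3, was below the lowest inside it. Relative to a floor of 3 counts over the group, the pooled CON-OLD-iBP level was at least 80-fold higher than OLD and at least 67.6-fold higher than CKO-OLD, limits that cover counting error only. CON-OLD-iBP 1 held 117 of the 191 counts, and without it the limits were 45.7-fold and 38.7-fold. Chondrocyte markers (18 genes) made up 1.149% of counts in CON-OLD-iBP 1, 0.08245% and 0.1559% in CON-OLD-iBP 2 and 3, and 1.517% in YOUNG 3. CKO-OLD 3 had 1.118% with Pthlh listed at 0, and CKO-YOUNG 3, with its 34 counts, had 0.05405%. The part of chondrocyte RNA in the Pthlh values was not tested. Neither difference passed edgeR's quasi-likelihood test after Benjamini-Hochberg adjustment over all genes, with adjusted p = 0.116 against OLD and 0.159 against CKO-OLD. The difference from CKO-OLD passed with limma-voom (adjusted p = 0.0362), in edgeR with the libraries of those groups alone (0.0375, and 0.0761 with a replicate block) and in edgeR within set 3 (0.0275). DESeq2 did not call it (0.103), and over 14 alternatives its adjusted p ran from 0.0275 to 0.364. Counts of 1 to 3 were rarer in these columns than counts of 4 (a median of 422.5 symbols had 4 counts and 194.5 had 1), so a listed 0 may be an estimate and not an absence of reads. Among the rest of the ligand and receptor family, Pth was listed at 0 in all 18 libraries and Pth2r did not exceed 0.849 CPM.

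Gnas, which encodes the stimulatory G protein alpha subunit, was the steadiest member. Its level ran from 1114 to 1637 CPM over the 18 libraries, a ratio of 1.47 and a coefficient of variation of 10.3%. Only 1.06% of tested genes had a coefficient of variation as low or lower. The group means ran from 1292 ± 156 CPM in CKO-YOUNG to 1569.5 ± 87.3 in CKO-OLD (SD, n = 3 each), and neighbouring groups in the order overlapped. The largest log2 difference among the 6 comparisons was 0.28, CKO-OLD over CKO-YOUNG, with adjusted p = 0.276 in edgeR. The locus has several start sites that give different products, and the counts per symbol do not separate them.

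Pde4b, a cAMP phosphodiesterase that PTH is known to induce, varied the most in ratio among the members detected in every library, by 70.3 times. It was lowest in CON-YOUNG and CKO-YOUNG and highest in OLD. YOUNG held 23.1, 17.4 and 15.3 CPM and OLD 45.8, 29.9 and 41. CKO-OLD held 28.1, 26.9 and 19.4, and CON-OLD-iBP 13.5, 12.7 and 11.7. All OLD libraries were above all YOUNG and all CKO-OLD libraries, and all CON-OLD-iBP libraries were below all 3 of those groups. CON-YOUNG held 0.651, 2.74 and 15.2, with the high value in its set 3 library, and CKO-YOUNG 2.54, 2.49 and 1.17.

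The rise of Pde4b from CKO-YOUNG to CKO-OLD was the only call among the 5 tested members in the 6 comparisons. The means were 2.06 ± 0.777 and 24.8 ± 4.72 CPM (SD, n = 3 each), a log2 difference of 3.59 with a standard error of 0.761 and adjusted p = 0.0463 in edgeR. With a term for library set, the log2 difference was 2.22 and adjusted p = 0.446, and against the set 3 library of CKO-YOUNG alone it was 4.41 with adjusted p = 0.00508. Over 14 alternatives the adjusted p ran from 1.81e-05 to 0.446, and 5 of the 6 fits without 1 library lost the call. Those 5 fits called 0% of all genes. The other differences did not pass: OLD over YOUNG was 1.06 (adjusted p = 1) and CON-OLD-iBP over OLD was -1.62 (0.182), both in edgeR. CKO-YOUNG over CON-YOUNG was 0.57 within set 2 (adjusted p = 0.953) and -3.71 between the single libraries of set 3 (0.0115 in edgeR). The age difference was 2.52 log2 units larger in the knockout groups than between YOUNG and OLD, which did not pass the test of that difference (edgeR adjusted p = 0.351).

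Macrophages also express Pde4b, and markers of macrophages and of osteoclasts moved with it. Their summed share correlated with Pde4b at a Spearman value of 0.818 over the 18 libraries, which share groups and sets. CKO-YOUNG libraries had 0.0161% to 0.111% of counts in these 26 markers and CKO-OLD libraries 0.155% to 0.665%. In set 1 the shares were 1.685% and 1.09% in YOUNG 1 and 2 and 1.202% and 1.195% in OLD 1 and 3, and these overlapped. Osteoclast markers (15 genes) also ran with Pde4b, at a Spearman value of 0.748. They summed to 0.2635% and 0.2687% of counts in OLD 1 and 3 against 0.0578% and 0.0509% in YOUNG 1 and 2, and to 0.0521% in OLD 2 against 0.0596% in YOUNG 3. CKO-YOUNG had 0.0345% to 0.035% in these markers and CKO-OLD 0.0444% to 0.0707%. The parts of macrophage and osteoclast RNA in the Pde4b differences were not tested.

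**Figure D3:**
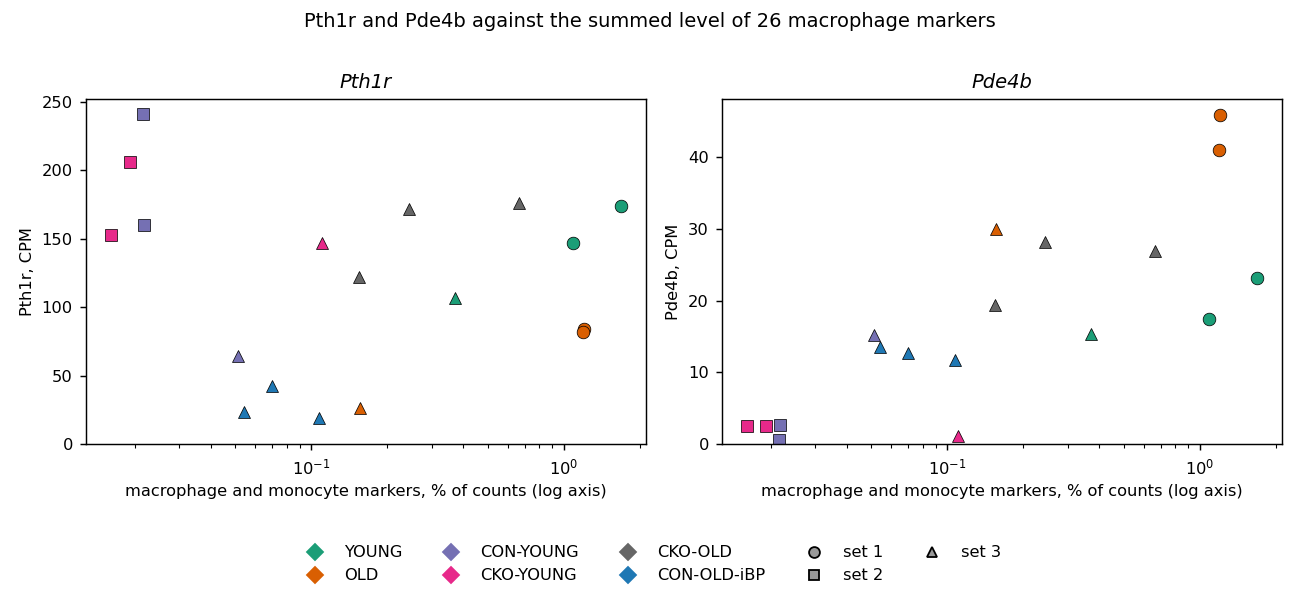
Pth1r (left) and Pde4b (right), in CPM on linear axes, against the summed share of 26 macrophage and monocyte markers (horizontal, % of counts, log axis) in 18 libraries. The 4 set 2 libraries have the lowest marker shares, with Pth1r at 153 to 241 CPM and Pde4b at 0.651 to 2.74.

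Pde4d, a second phosphodiesterase of the same family, varied less. It ran from 11.9 to 31.5 CPM. OLD held 23.5, 31.5 and 22.4 CPM against 17, 19.8 and 17.2 in YOUNG, and the groups did not overlap, with a log2 difference of 0.52 (edgeR adjusted p = 1). CKO-OLD held 22.4, 28.4 and 28.7 against 12.5, 16.8 and 12.5 in CKO-YOUNG, again without overlap. That difference of 0.93 log2 units did not pass edgeR's test (adjusted p = 0.0762). The old groups without iBP were thus each above their young counterparts in every library, at differences that did not pass.

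Crem, which encodes cAMP-responsive activators and the repressor ICER, followed the library sets more than the groups. The 4 set 2 libraries held 5.36, 4.74, 4.58 and 6.78 CPM, the lowest of all. The other libraries of CON-YOUNG and CKO-YOUNG, both from set 3, held 11.6 and 12.7. YOUNG held 16.6, 15.6 and 13.2 CPM, OLD 12.5, 24.7 and 10.3, CKO-OLD 25, 15.3 and 12.3, and CON-OLD-iBP 13.9, 10.2 and 21.7. These 4 groups overlapped one another. No comparison of Crem passed edgeR's test, and the lowest adjusted p was 0.155, for CKO-OLD over CKO-YOUNG at a log2 difference of 1.13.

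The wider pathway was read through 9 lists holding 146 symbols without Pth1r, of which 140 were tested. Few genes in the table were called in any comparison, so list counts are given beside the share of all genes called. In OLD against YOUNG, 0 of 140 pathway genes were called, and 0% of all genes were (edgeR; 554 genes passed 0.05 unadjusted, while the count was 40 with DESeq2 and 0 with limma-voom). In CKO-YOUNG against CON-YOUNG, 0 pathway genes were called against 0.127% of all genes, and in CKO-OLD against OLD 0 against 0.00604%. In CON-OLD-iBP against OLD the count was 0 against 0.0241%. Before adjustment, 7, 12, 16 and 38 pathway genes had edgeR p below 0.05 in these 4 comparisons. Over all 16566 genes, 554, 907, 1352 and 3869 did. Among the pathway genes DESeq2 made 0, 1, 2 and 22 calls, beside 0.241%, 1.35%, 1.08% and 12.2% of all genes, and limma-voom 0 in each. In CON-OLD-iBP against CKO-OLD, 2 pathway genes fell, 1.43% of those tested, against 1.29% of all genes. In CKO-OLD against CKO-YOUNG, 6 rose and 1 fell, 5% of those tested, against 0.7% of all genes. The median log2 difference of the 140 genes stayed between -0.111 and -0.019 in the 6 comparisons, against -0.031 to 0.001 for all genes.

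Between OLD and YOUNG, the genes of largest change within each pathway list did not pass the test. Creb3l1, a CREB-related factor for collagen secretion, was at 109 ± 20.2 CPM in OLD against 227 ± 34.3 in YOUNG (log2 difference -1.05, edgeR adjusted p = 1). Tnfrsf11b, which encodes the RANKL decoy osteoprotegerin, was at 22.9 ± 7.29 against 221 ± 322. The spread in YOUNG exceeded its mean. Creb3l1 led the CREB family list only, and genes of other lists changed by more, among them Wnt4 (log2 difference -1.69) and Adgrg6 (-1.52). Within set 1 alone (2 libraries in each group), edgeR called 3 pathway genes, all higher in OLD, and 0.38% of all genes. OLD 1 and OLD 3 were the closest pair of libraries (Spearman 0.9953 across genes), so the spread behind these calls may be technical. Tnfsf11, the RANKL gene and a classic PTH target, was at 11.5 and 11 CPM in OLD 1 and 3 against 1.56 and 1.46 in YOUNG 1 and 2 (log2 difference 2.89, adjusted p = 0.0247). In set 3 the order was the reverse, with 3.82 in OLD 2 and 9.98 in YOUNG 3. The other 2 were Cebpd (adjusted p = 0.0456) and the phosphodiesterase Pde10a (0.0384). In the same libraries the 15 osteoclast markers had a median log2 difference of 3.504, against -0.017 for all genes, with 1 of them called, and their part in these 3 calls was not tested.

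Adcy5, an adenylyl cyclase, was higher in the knockout at both ages. CKO-YOUNG held 25.1, 29.1 and 37.8 CPM and CON-YOUNG 4.44, 3.86 and 0.0718. CKO-OLD held 7.98, 22 and 15.2 and OLD 2.1, 1.49 and 1.43. Every knockout library was above every other library of the study, whose highest value was the 4.44 CPM of CON-YOUNG 1. The log2 difference was 3.46 in young cells (edgeR adjusted p = 0.405) and 3.17 in old cells (0.457), so neither passed in edgeR. DESeq2 called Adcy5 in both comparisons, beside 1.35% and 1.08% of all genes, and limma-voom in neither. A contrast of both knockout groups against CON-YOUNG and OLD was added after these values were seen, so for Adcy5 its p-values are descriptive and no independent test. It gave 3.31 log2 units with a standard error of 0.703 and edgeR adjusted p = 0.053, while 0.531% of all genes were called. DESeq2 and limma-voom called Adcy5 in that contrast, as did edgeR with a term for library set and edgeR without CON-YOUNG replicate 3, and over 19 alternatives its adjusted p ran from 1.65e-05 to 0.178. In the same contrast edgeR called 0 of 140 pathway genes, limma-voom 2 and DESeq2 5, beside 88, 160 and 416 of all genes. In edgeR, 15 pathway genes had an unadjusted p under 0.05, as did 1388 of all 16566 genes. Pth1r itself was at 163 ± 28.6 CPM in the 6 knockout libraries and 109.7 ± 77.8 in the 6 others of this contrast. Within set 2, where CKO-YOUNG and CON-YOUNG have 2 libraries each and 0.459% of all genes were called, Pde10a was higher in the knockout (11.9 against 3.97 CPM, edgeR adjusted p = 0.0102) and Gng2, a G protein gamma subunit, lower (3.49 against 8.56, 0.0486). Pde10a ran the other way between the single set 3 libraries, at 8.7 in the knockout and 23.8 in the control. Both pairs of set 2 were among the closest libraries (Spearman 0.9905 and 0.9888), so the spread behind the set 2 calls may be technical.

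CON-OLD-iBP and CKO-OLD, the old groups whose 6 libraries all belong to set 3, differed in 2 of 140 tested pathway genes. That is 1.43%, near the 1.29% of all genes called. Both were in the list of 30 tested genes that respond to PTH and cAMP. Nfil3, a PTH-induced repressor of the bZIP family, was at 13.3, 14.4 and 13.7 CPM in CON-OLD-iBP and 48.7, 56.8 and 46.3 in CKO-OLD. It fell by 1.87 on the log2 scale (standard error 0.361, edgeR adjusted p = 0.0264). Stc1, the gene most like Pth1r, was at 2.97, 3.74 and 3.53 CPM against 25.2, 56.2 and 17. It fell by 3.26 on the log2 scale (standard error 0.717, edgeR adjusted p = 0.0435), and its likeness to Pth1r means that it is not independent of the choice of the receptor. The CON-OLD-iBP libraries of both genes were below every other library of the study. In the list of 30 tested response genes, 23 were lower and 7 higher in CON-OLD-iBP, with a median log2 difference of -0.391 against -0.014 for all genes. Both calls were lost on leaving out single libraries, Nfil3 in 5 of 6 such fits (all but that without CON-OLD-iBP 2) and Stc1 in all 6, and limma-voom did not call Stc1. The left-out fits called 0.0117% to 0.112% of all genes, and 3% without CON-OLD-iBP 2. Over 14 alternatives the adjusted p ran from 2.91e-05 to 0.123 for Nfil3 and from 8.55e-05 to 0.178 for Stc1. Macrophage markers made up 0.0539% to 0.107% of counts in CON-OLD-iBP and 0.155% to 0.665% in CKO-OLD. All 26 were lower in CON-OLD-iBP, with a median log2 difference of -2.002. All 18 cell cycle markers were also lower (median -1.095), and the part of either list in these values was not tested.

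A fit with 1 coefficient for each group and set, which estimates the spread within sets, made many more calls between the same 6 libraries. Part of that spread came from the pairs of libraries in sets 1 and 2. OLD 1 and 3, CKO-YOUNG 1 and 2, and CON-YOUNG 1 and 2 were the closest pairs of the study (Spearman 0.9953, 0.9905 and 0.9888). The spread behind these calls may therefore be technical. The fit called 18.7% of all genes and 40 of 140 pathway genes, 17 higher and 23 lower in CON-OLD-iBP. In the list of response genes 10 fell and 2 rose. Of the 26 macrophage markers, 18 fell in this fit. Of 18 cell cycle markers, 14 fell (list median -1.094), and the part of either list in the other calls was not tested. Besides Nfil3 (adjusted p = 2.91e-05) and Stc1 (0.00186), the immediate early genes fell: Fos, at 144 against 577 CPM (0.000984), Nr4a1, at 82.8 against 263 (0.00107), Junb, at 174 against 419 (0.00117), and Fosb, at 163 against 352 (0.0222). The transcription factor genes Vdr, Cebpd and Per1 and the G protein regulator Rgs1 also fell. Fosl1 and the growth factor gene Areg rose, Areg from 0.491 to 5.34 CPM (adjusted p = 0.019). All adjusted p-values here are from edgeR.

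The same fit, which called 18.7% of all genes, also made calls in the other pathway lists. Among 17 receptor partners, 4 rose and 5 fell (52.9% called). Among 19 genes of G protein subunits and phospholipase C, 2 rose and 3 fell (26.3%). In the CREB family list of 18 genes, 3 rose and 1 fell (22.2%). The receptor partners that rose included Ramp3, an accessory protein of receptors of this class (7.73 against 1.39 CPM, adjusted p = 0.0301). Rgs16, which turns off G protein alpha subunits, also rose (314 against 92, 0.0021). The receptor partners that fell included the arrestin genes Arrb1 and Arrb2 and the scaffold genes Slc9a3r1 and Slc9a3r2. Of 9 adenylyl cyclases only Adcy5 was called (11.1%), at 1.28 against 15.1 CPM (adjusted p = 0.00196). Of 15 phosphodiesterases 40% were called, with Pde1b, Pde3a, Pde8a and Pde10a higher and Pde3b and Pde4a lower. Pde4b had adjusted p = 0.0794 and Pde4d 0.203. Among 16 genes of the protein kinase A list, 1 was called (6.25%), the anchoring protein Akap8, which rose. These p-values are from edgeR and rest on the same spread, which may be technical.

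**Figure D4:**
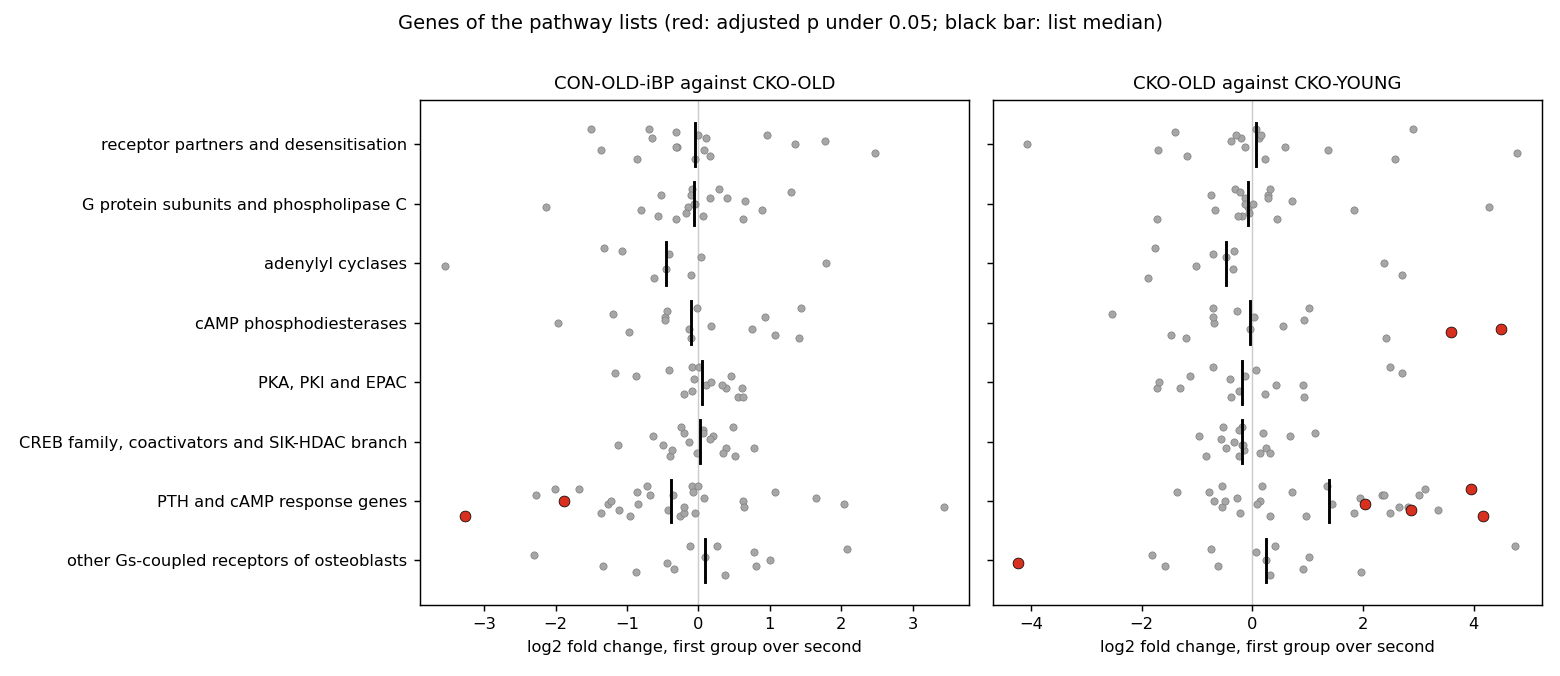
Log2 fold changes (horizontal) of tested pathway genes in 8 lists, without the family of PTH receptors and ligands, for CON-OLD-iBP against CKO-OLD (left) and CKO-OLD against CKO-YOUNG (right), with red points for an edgeR adjusted p under 0.05 and black bars for the median of the drawn points. Genes listed at 0 throughout a group are not drawn. The called genes are the 2 lower response genes on the left and, on the right, 4 response genes and 2 phosphodiesterases that are higher and 1 receptor that is lower.

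Within the knockout, 4 of 30 tested PTH and cAMP response genes were higher in older cells, 13.3% beside 0.7% of all genes called. Nr4a1, an orphan nuclear receptor gene induced by PTH, was at 263, 298 and 228 CPM in CKO-OLD and 17.6, 12.6 and 20.7 in CKO-YOUNG (log2 difference 3.95, edgeR adjusted p = 0.0253). Its relative Nr4a2 was at 37.9, 51.1 and 44 against 5.92, 4.56 and 7.69 (2.87, 0.0253). Il6, a cytokine that PTH induces in osteoblasts, was at 8.16, 8.13 and 7.5 against 0.575, 0.442 and 0.306 (4.16, 0.0253). No library of one group reached a library of the other for any of these genes. Cebpd rose by 2.03 (adjusted p = 0.0253) and the phosphodiesterase Pde7b by 4.49 (0.0463), while Adora2a, a Gs-coupled adenosine receptor, fell by 4.24 on the log2 scale (0.0392). Of 30 response genes, 22 were higher and 8 lower, with a median of 1.391 against -0.005 for all genes. Markers of other cells moved in the same comparison. Macrophage markers were higher for 25 of 26 (median 2.479), osteoclast markers for 12 of 15 (2.062) and chondrocyte markers for 16 of 17 (3.543), while pericyte and smooth muscle markers were lower for 11 of 12 (-2.367). In edgeR 0 of these markers passed after adjustment, and 19, 9, 6 and 7 in that order had an unadjusted p under 0.05. Of all 16566 genes, 4065 did. DESeq2 called 16, 3, 4 and 6 of the markers and limma-voom 1, 0, 0 and 0, beside 12% and 1.53% of all genes. Their part in the response gene values was not tested. Without any one CKO-OLD library, CKO-YOUNG 1 or CKO-YOUNG 2, 0 pathway genes and 0% of all genes were called. Without CKO-YOUNG 3 there were 39 calls, beside 15.7% of all genes.

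These values also ran with the library sets. CON-YOUNG 3, a young control from set 3, had Nr4a1 at 82.7 CPM, Nr4a2 at 19.6 and Pde7b at 19.2, above the set 2 libraries of CON-YOUNG and all CKO-YOUNG libraries, and its Adora2a was 1.45 against 16.7 and 17.4 in the others of its group. With a term for set, Nr4a1 was higher by 2.69 and Il6 by 3.85 log2 units, and of the 7 calls only that of Nr4a2 remained. That fit called 6 genes in all, 0.0362%. Against the set 3 library of CKO-YOUNG, which also held Xist, 24 of 140 pathway genes were called, 21 of them higher, beside 5.38% of all genes. YOUNG held Nr4a1 at 181, 170.4 and 86.1 CPM and OLD at 199, 186 and 201, so the low values were those of CON-YOUNG and CKO-YOUNG. Whether the age difference in the knockout exceeded that between YOUNG and OLD was tested over all genes, and edgeR called 0 of 16566 genes (1993 at an unadjusted p under 0.05).

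Nr4a1 is shown from the pathway genes called with 1 coefficient per group. Among those with a RefSeq window, it and Nr4a2 had the most TGACG cores, counted on both strands. Stc1, Cebpd and Adora2a had no window. The 4 cores of Nr4a1 lie in the 250 bases upstream of its start (GRCm38.p6, RefSeq, plus strand). Capitals mark the cores, which read CGTCA here because all 4 lie on the opposite strand.
Nr4a1, chr15:101266596-101266845: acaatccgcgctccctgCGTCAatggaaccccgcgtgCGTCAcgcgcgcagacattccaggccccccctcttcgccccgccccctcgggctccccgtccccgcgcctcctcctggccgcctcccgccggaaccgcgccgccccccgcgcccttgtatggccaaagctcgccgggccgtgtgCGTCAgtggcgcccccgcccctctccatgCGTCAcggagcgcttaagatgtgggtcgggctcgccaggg
The sites begin at positions -233, -213, -69 and -40 from the start. Nr4a2 also had 4 in its window. A match of letters is a description and does not show that a factor binds there.

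**Figure D5:**
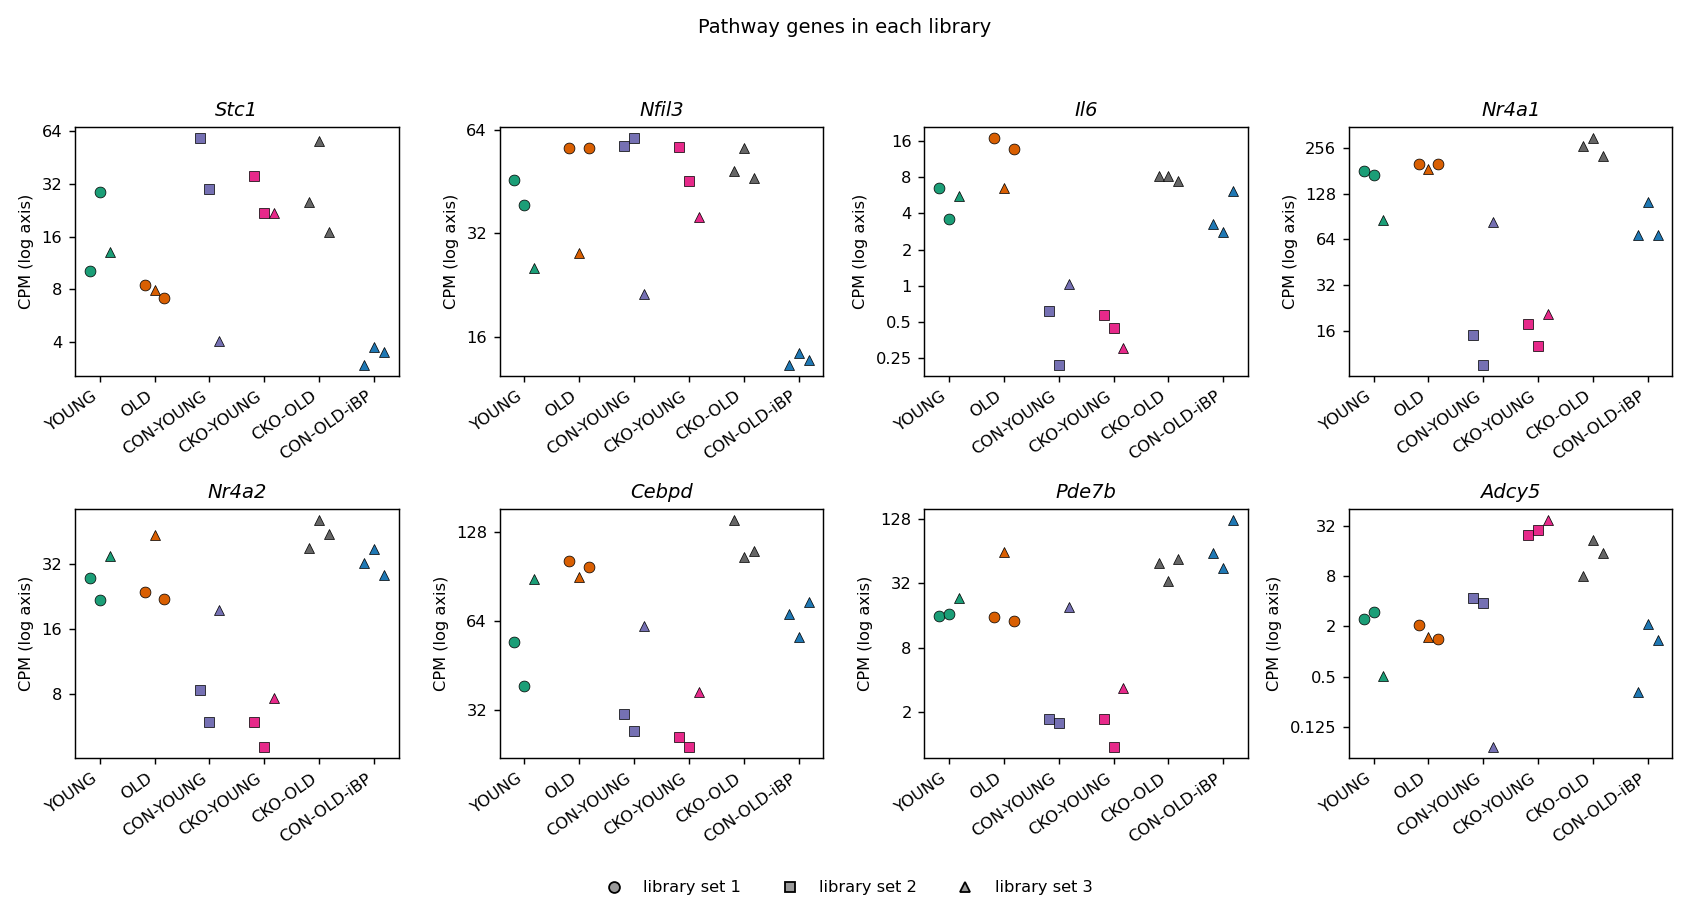
CPM (vertical, log axes with base 2) of 8 pathway genes in the 18 libraries by group, with shapes for library sets. Stc1 and Nfil3 are lowest in CON-OLD-iBP, the values of Il6, Nr4a1, Nr4a2, Cebpd and Pde7b are low in CKO-YOUNG, and Adcy5 is highest in the 6 knockout libraries (7.98 to 37.8 CPM).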

How the data were processed

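RNA was sequenced in 18 libraries of cultured femoral osteoblasts, and 8 CUT&Tag samples are not analysed here. The authors deposited read counts per gene symbol, whole numbers with no normalization. FastQC, Trim Galore, HISAT2 and mm39 are named, per the submitters' processing notes. For the counting program, annotation and use of strand, the value is not given in the sources used here, so overlapping, antisense and paralogous genes cannot be told apart.

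From the counts, edgeR 4.0.16 (R 4.3.3) kept 16566 genes with filterByExpr (minimum 10, total 15), scaled by TMM and ran the robust quasi-likelihood F test with 1 coefficient per group (12 residual degrees of freedom), Benjamini-Hochberg adjustment over all genes and a threshold of 0.05, two-sided. CPM is per 1e6 scaled counts, and 1 count was worth 0.0127 to 0.02027 CPM. DESeq2 1.42.0, limma-voom (limma 3.58.1), RLE size factors, no filter, left-out libraries, a replicate block and library sets were alternatives. The code was tested on simulated data. Replicate numbers come from the titles; same-numbered libraries deviated together in CKO-YOUNG and CON-YOUNG (r = 0.193, 0.237 and 0.305) and in no other comparison.

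The members and lists were chosen with earlier results of these data known. Named genes are the members, called list genes, those of largest change with at least 5 CPM, label-check genes, and the 6 most and 3 least like Pth1r. Tnfsf11, Pth2r, the within-set genes and those used beside a result were named after their values were seen. Promoter windows were matched by symbol for 5 of 6 members.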

Additional observations from a re-analysis of the deposited data

How the results depend on the processing

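Pth1r kept its sign in OLD against YOUNG, CKO-OLD against OLD and CON-OLD-iBP against CKO-OLD under every alternative run. The alternatives reuse the libraries in which Pth1r was picked for its pattern, so the kept sign is a description and no independent support. With DESeq2 the counts of called pathway genes were 1 in CKO-YOUNG against CON-YOUNG, 2 in CKO-OLD against OLD, 22 in CON-OLD-iBP against OLD, 11 in CON-OLD-iBP against CKO-OLD, 36 in CKO-OLD against CKO-YOUNG and 5 in the contrast over both ages. With limma-voom they were 11 in CKO-OLD against CKO-YOUNG, beside 1.53% of all genes, and 2 over both ages, beside 160 genes (416 with DESeq2). Without a filter the count was 1 in CON-OLD-iBP against CKO-OLD, beside 0.6%. With only the libraries of the compared groups, it was 1 in CON-OLD-iBP against OLD, beside 0.198%. In that fit it was 17 in CON-OLD-iBP against CKO-OLD (4.44%) and 19 in CKO-OLD against CKO-YOUNG (4.87%). A replicate block there gave 16 (4.24%) and 11 (1.52%) in the last 2. Over all genes, DESeq2 called 40 in OLD against YOUNG (edgeR 0), 224 in CKO-YOUNG against CON-YOUNG (21), 179 in CKO-OLD against OLD (1), 2021 in CON-OLD-iBP against OLD (4), 1431 in CON-OLD-iBP against CKO-OLD (213) and 1995 in CKO-OLD against CKO-YOUNG (116).

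A term for library set gave 1 call in CKO-YOUNG against CON-YOUNG, 31 in CON-OLD-iBP against CKO-OLD, 1 in CKO-OLD against CKO-YOUNG and 2 over both ages. Within set 1, OLD against YOUNG had 3 calls, and within set 2, CKO-YOUNG against CON-YOUNG had 2. Within set 3 there were 20 in CKO-YOUNG against CON-YOUNG, 1 in CON-OLD-iBP against OLD, 40 in CON-OLD-iBP against CKO-OLD and 24 in CKO-OLD against CKO-YOUNG, where a group with 1 library is assumed to vary like the others. Leaving out 1 library gave 0 to 13 calls in CON-OLD-iBP against OLD. There were 13 without OLD 2, beside 7.87% of all genes, and 1 without CON-OLD-iBP 2, beside 0.69%. In CON-OLD-iBP against CKO-OLD the range was 0 to 3 (3 without CON-OLD-iBP 2, beside 3%). In CKO-OLD against CKO-YOUNG it was 0 to 39 (39 without CKO-YOUNG 3, beside 15.7%), and the fits with 0 called 0% of all genes. Over both ages it was 0 to 2 (2 without OLD 2 or CON-YOUNG 3, beside 115 and 119 genes).

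Some differences changed sign, and the cause was not tested. Pde4b in CKO-YOUNG against CON-YOUNG was -1.59, and Pth1r in CON-OLD-iBP against OLD was -1.17 and became 0.11 within set 3. Crem in OLD against YOUNG was -0.08 with limma-voom, -0.04 with the replicate block and with a set term, and -0.49 in set 1. In CKO-YOUNG against CON-YOUNG within set 2, Pde4b was 0.57 and Pde4d 0.04. In CKO-OLD against OLD, with a set term and in set 3, Gnas was -0.04 and -0.06, Pde4d -0.07 and -0.25, and Crem -0.1 and -0.49, and Gnas in CON-OLD-iBP against OLD was -0.15 and -0.17. Leaving out 1 library, Crem ran from -0.41 to 0.3 in OLD against YOUNG, -0.35 to 0.67 in CKO-YOUNG against CON-YOUNG, -0.2 to 0.61 in CKO-OLD against OLD, -0.41 to 0.42 in CON-OLD-iBP against OLD and -0.56 to 0.15 in CON-OLD-iBP against CKO-OLD. Pde4b in CKO-YOUNG against CON-YOUNG ran from -2.12 to 0.29 (0.29 without CON-YOUNG 3), Pde4d in CKO-OLD against OLD from -0.05 to 0.21, and Gnas in CON-OLD-iBP against OLD from -0.09 to 0.1. Against the fit on the same libraries without it, the block lost 8 calls in CKO-OLD against CKO-YOUNG, Adora2a among them. In CON-OLD-iBP against CKO-OLD it lost Pthlh (0.0375 to 0.0761), Pde4b, Grk5, Rgs1 and Rgs16 and gained Pde3b, Pde8a, Ramp3 and Vdr. Same-numbered libraries correlated at -0.312 to 0.313 over the 5 comparisons in which the numbers were not taken to pair them. At these depths only Pthlh among the members was limited by counting.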
